A study of Mus musculus with 72 samples.

Results

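The genes described here are 10 genes of the T cell receptor and of naive T cells: Cd3d, Cd3e, Cd3g, Cd4, Cd8a, Cd27, Trat1, Lck, Il7r and Ccr7. Each was read from probe sets that the platform annotation assigns to exactly 1 gene symbol, and the brightest of them by its 72-array mean stood for the gene. Of the 10 genes, 9 had such a probe set and were tested, and Lck was not analysed here. In all, 12589 genes were tested, out of 18194 that had a probe set of 1 symbol. The 9 genes had 16 probe sets, of which 15 passed the filter on dim values. Whole blood came from female Balb/c mice that were 9 weeks old when they began to drink water containing lead (Pb) as lead acetate trihydrate. Mice drank 0 µg/mL (control), 5 µg/mL (low Pb) or 50 µg/mL (high Pb) for 2 weeks, and all then drank Pb-free water for 2 more weeks. Blood was taken by submandibular bleed, stabilised in RNAprotect tubes and depleted of globin transcripts, and 1 array was run per blood sample. After recovery there were 7 control, 15 low-Pb and 13 high-Pb arrays, and after exposure 7 control, 15 low-Pb and 15 high-Pb arrays. All exposed mice were bled after exposure and again after recovery, and 7 of the control mice at the first bleed. Whether the same control mice were bled at both collections is not in the labels, nor which samples of exposed mice share a mouse. The p-values therefore measure the spread between blood samples. They treat the collections as independent, although exposed mice gave blood at both, and this repeated sampling was not used in the main fit. Controls and Pb-exposed mice share strain, sex and age, and the mice were 2 weeks older at the second collection.

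The T cell receptor recognises peptide on MHC molecules and signals through the CD3 chains, whose intracellular motifs are phosphorylated by the kinase Lck, which is carried by the co-receptors CD4 and CD8. Naive T cells recirculate between blood and lymph nodes under the chemokine receptor CCR7 and survive on interleukin 7. In blood, transcripts of these genes come mainly from T cells, although B cells also carry Ccr7 and some carry Cd27. In a whole-blood sample, fewer T cells and less RNA per T cell cannot be told apart.

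The 3 CD3 genes lie together in the genome and their levels moved together across arrays. Values of r between Trat1 and the CD3 genes were also positive, but lower than those of the CD3 genes with each other. With Cd3e after exposure the r of Trat1 was only 0.20 and did not pass (permutation p 0.251). The promoters of these 4 genes are shown. Promoter sequences were found for 7 of the 9 genes, and Cd4 and Ccr7 had no entry. Each sequence runs 5′ to 3′ on the gene's strand from 250 bases before to 50 bases after the annotated start, from RefSeq on GRCm38.p6. Capitals mark matches, on either strand, to the TATA box TATAAA, RUNX TGTGGT, TCF/LEF CTTTGA, ETS AGGAAGT, E-box CAGNTG or the GATA motif AGATAA, none of which overlapped. Cd3d lies at chr9:44981536-44981835 on the plus strand, Cd3g at chr9:44980382-44980681 on the minus strand, Cd3e at chr9:45009562-45009861 on the minus strand and Trat1 at chr16:48772013-48772312 on the minus strand.
Cd3d: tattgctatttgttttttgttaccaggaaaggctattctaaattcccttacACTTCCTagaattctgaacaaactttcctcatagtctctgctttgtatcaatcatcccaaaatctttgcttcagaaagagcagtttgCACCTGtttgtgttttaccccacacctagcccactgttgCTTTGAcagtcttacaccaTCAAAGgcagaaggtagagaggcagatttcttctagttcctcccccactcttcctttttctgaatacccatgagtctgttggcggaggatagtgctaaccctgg
Cd3g: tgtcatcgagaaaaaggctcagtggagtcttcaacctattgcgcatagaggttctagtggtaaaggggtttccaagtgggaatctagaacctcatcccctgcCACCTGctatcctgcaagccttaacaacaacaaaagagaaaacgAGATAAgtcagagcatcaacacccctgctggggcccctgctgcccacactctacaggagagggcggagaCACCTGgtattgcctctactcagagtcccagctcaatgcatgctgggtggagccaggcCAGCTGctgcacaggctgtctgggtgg
Cd3e: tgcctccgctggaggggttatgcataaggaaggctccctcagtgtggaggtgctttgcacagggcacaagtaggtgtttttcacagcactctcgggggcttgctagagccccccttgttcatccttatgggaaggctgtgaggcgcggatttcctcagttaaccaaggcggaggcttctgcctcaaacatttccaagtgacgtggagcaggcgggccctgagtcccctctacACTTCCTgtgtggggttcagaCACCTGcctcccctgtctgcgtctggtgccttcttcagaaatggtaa
Trat1: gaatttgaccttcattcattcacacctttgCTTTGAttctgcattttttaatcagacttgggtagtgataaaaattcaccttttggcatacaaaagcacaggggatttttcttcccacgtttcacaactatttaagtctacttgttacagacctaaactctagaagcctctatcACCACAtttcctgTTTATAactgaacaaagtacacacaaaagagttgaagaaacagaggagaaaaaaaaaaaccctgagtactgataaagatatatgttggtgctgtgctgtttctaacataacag

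The starts of Cd3d and Cd3g lie 1355 bases apart and point away from each other, and that of Cd3e lies 27825 bases from that of Cd3d. The Cd3d window held 2 TCF/LEF matches, 1 ETS match and 1 E-box, the Cd3g window 3 E-boxes and 1 GATA match, and the Cd3e window 1 ETS match and 1 E-box. The Trat1 window held 1 TATA box match, 1 RUNX match and 1 TCF/LEF match and was the only one of these 4 with a TATA box match. That match was the reverse complement, TTTATA, at position -63 from the start. Among 32851 promoter windows of the same length, 13.6% held the TATA box, 16.8% RUNX, 16.0% TCF/LEF, 9.35% ETS, 51.4% the E-box and 11.2% GATA. A match is a description of the letters and says nothing of binding.

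The 9 genes covered a wide range of signal. Averaged over the 72 arrays on the deposited log2 scale, the brightest probe sets gave 10.8 for Cd3d, 10.7 for Cd3e, 8.82 for Cd3g, 7.75 for Cd4, 7.38 for Cd8a, 7.58 for Cd27, 6.17 for Trat1, 10.2 for Il7r and 9.30 for Ccr7. These levels belong to different probe sets and give no order between genes. Each of these probe sets lay above the filter value of 4.14, the median of all deposited values, in all 72 arrays. Group means of Trat1 lay furthest apart, between 5.88 and 6.58, and those of Cd8a closest together, between 7.33 and 7.47. All 8 listed T cell markers (Bcl11b, Cd2, Cd247, Cd3d, Cd3e, Cd3g, Cd5 and Thy1) were measured, and their mean lay between 8.67 and 9.75 in the 72 arrays. Cd3d, Cd3e and Cd3g are also among the 9 genes, so this mean is no independent check. The same arrays held the extremes of several genes at once. Replicate 12 was the lowest low-Pb array after exposure for 7 of the 9 genes, replicate 4 the lowest high-Pb array after recovery for 7, and replicate 7 the highest control array after recovery for all 9. Replicate 13 of the high-Pb arrays after exposure was the lowest for Cd3d, Cd3e, Cd27 and Ccr7. That array stood apart in 2 technical measures, with an interquartile range of 0.472 for its differences from each probe set's median and a difference of 1.04 between 3′ and 5′ control probe sets, where the next highest of its group had 0.587. Replicate 4 of the low-Pb arrays after recovery also had a wide interquartile range, of 0.492, and was the highest for 6 of the 9 genes.

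**Figure D1:**
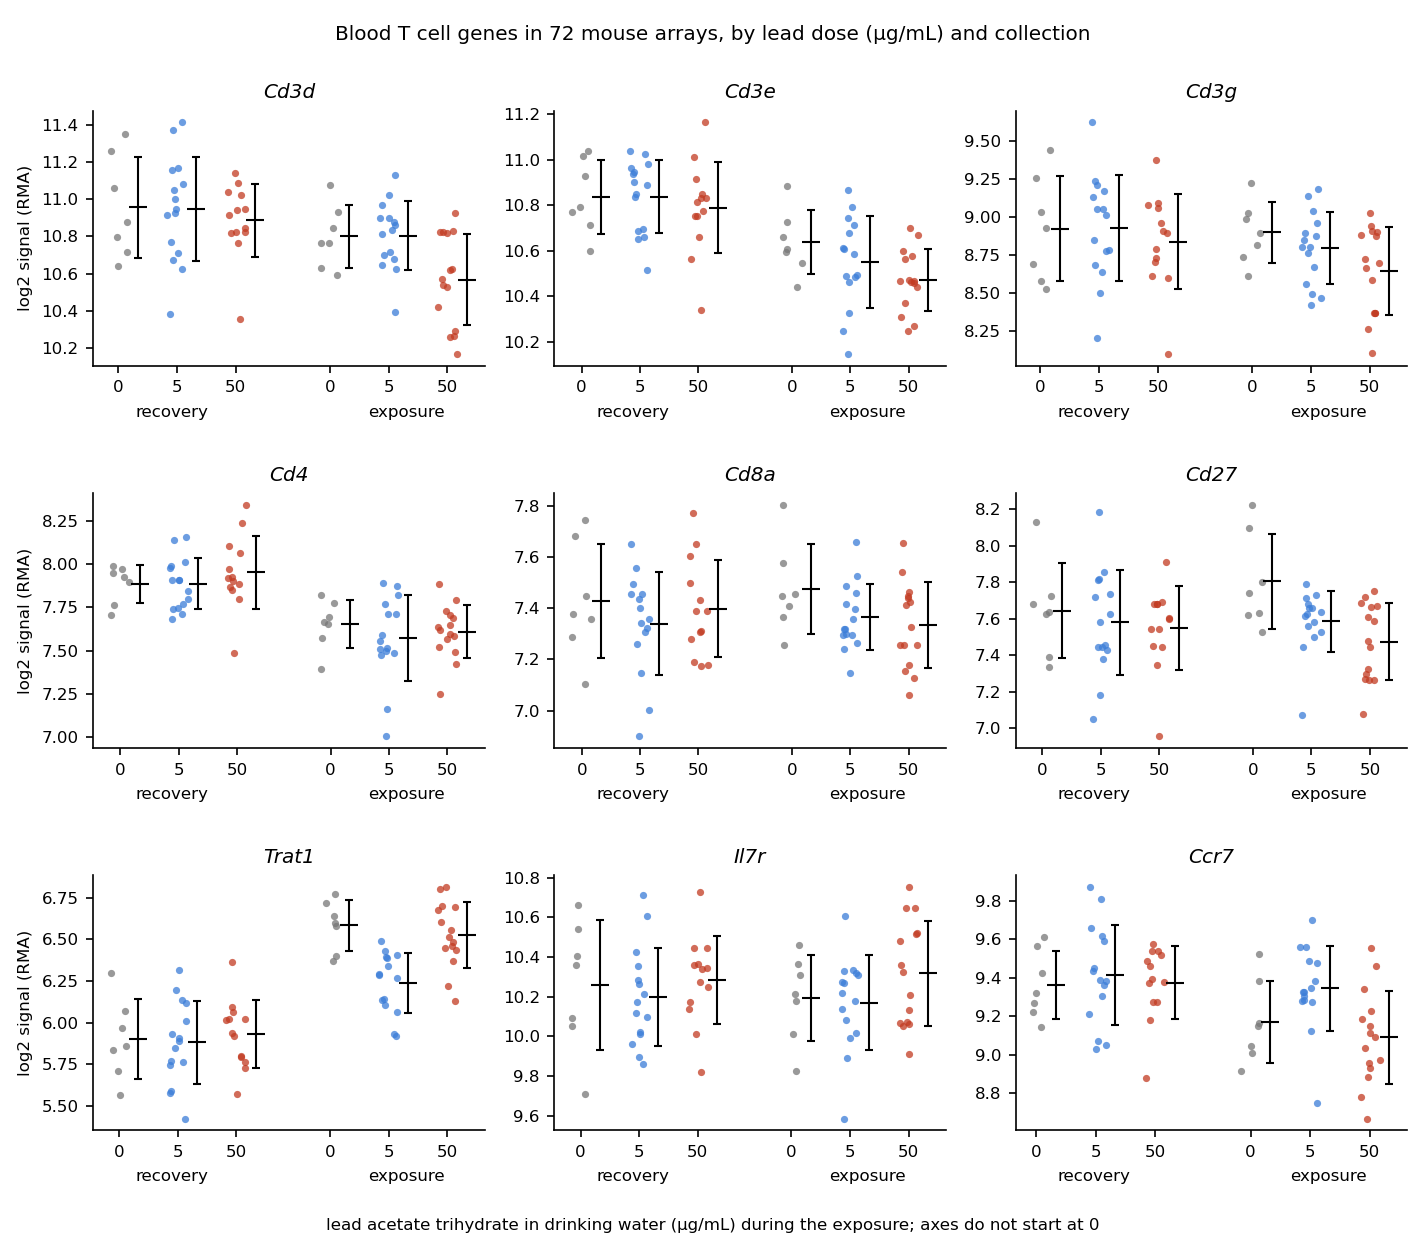
Levels of the 9 T cell genes in 72 arrays on the deposited log2 scale, with the recovery collection at the left of each panel, the exposure collection at the right, and Pb doses of 0, 5 and 50 µg/mL within each. Dots are arrays, and bars are group means ± SD; the axes do not start at 0. Trat1 lies lower in recovery at each dose, and within exposure it is lowest at 5 µg/mL.

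The first comparison asks which of these genes differed between high-Pb and control mice at the end of exposure. None of the 9 passed an adjusted p of 0.05 (limma, Benjamini-Hochberg over all tested genes), where 0.0238% of all genes did. At an unadjusted p under 0.05 there were 3 of the 9 and 1193 of all genes. The log2 difference, high Pb minus control, was negative for 8 of the 9, with a median of -0.14, while 58.9% of all genes were negative with a median of -0.02.

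Cd27, a co-stimulatory receptor of the tumour necrosis factor receptor family, stood furthest from control. Its levels after exposure were 7.08, 7.48 and 7.75 (lowest, median, highest) in 15 high-Pb arrays, against 7.53, 7.74 and 8.22 in 7 control arrays. The groups overlapped, with 8 of the 15 high-Pb arrays below every control array. The log2 difference was -0.33 ± 0.10 (SE), a fold of 0.795, with an adjusted p of 0.275. It passed after quantile normalization (adjusted p 0.0342) and after cyclic loess (adjusted p 0.0339).

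The CD3 chains carry the signal of the receptor into the cell. Cd3d had 10.17, 10.57 and 10.93 in the high-Pb arrays, against 10.59, 10.77 and 11.08 in the control arrays. The groups overlapped, and the log2 difference was -0.23 ± 0.10 with an adjusted p of 0.453. Cd3g differed by -0.25 ± 0.13 (adjusted p 0.536) and Cd3e by -0.17 ± 0.08 (adjusted p 0.495). None of the 3 therefore stood apart from control once all genes were counted. The co-receptor Cd4 gave -0.04 (adjusted p 0.913) and Cd8a -0.14 (adjusted p 0.597). Ccr7 differed by -0.08 and Trat1 by -0.06, and Il7r, the interleukin 7 receptor chain, by 0.12. The 95% intervals of the 9 differences ran from -0.54 to 0.34, so that folds below 0.688 and above 1.27 lay outside all of them.

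Low-Pb mice differed from controls in Trat1, which was lower. Trat1 encodes TRIM, a transmembrane adaptor that associates with the T cell receptor. Trat1 levels after exposure were 5.92, 6.28 and 6.49 in 15 low-Pb arrays, against 6.37, 6.60 and 6.77 in 7 control arrays. The groups overlapped, and 10 of the 15 low-Pb arrays lay below every control array. Trat1 fell by 0.34 ± 0.09 on the log2 scale, a fold of 0.788, with an adjusted p of 0.0397. This was 1 of the 9 genes, where 1.3% of all genes passed in either direction, 1.11% higher and 0.191% lower. The adjusted p rose above 0.05 when any 1 of 11 arrays was left out: control replicates 1, 2, 4, 5 and 6 and low-Pb replicates 1, 2, 7, 9, 11 and 14, with a range over the 22 left-out arrays of 0.0344 to 0.161. It also exceeded 0.05 with median centring of each array, without the filter on dim probe sets, and with the replicate number as a fixed block, over a range of 0.00407 to 0.126 in the 14 alternative settings.

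The other 8 genes did not pass between low-Pb and control mice. Cd27 levels were 7.07, 7.63 and 7.79 in the low-Pb arrays, against 7.53, 7.74 and 8.22 in the control arrays, a difference of -0.22 ± 0.10 with an adjusted p of 0.369. Like the high-Pb difference, it passed after quantile normalization and after cyclic loess, with a smallest adjusted p of 0.0309. Ccr7 had 8.75, 9.33 and 9.70 in the low-Pb arrays, against 8.92, 9.15 and 9.52 in the control arrays, a difference of 0.18 ± 0.10 with an adjusted p of 0.501 (0.0206 with array weights). Both pairs of groups overlapped. The remaining 6 genes differed by -0.11 to 0.00, with adjusted p of 0.667 or higher. Over the 9 genes 7 were negative with a median of -0.09, against a median of 0.00 over all genes. Both comparisons use the same 7 control arrays.

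High-Pb and low-Pb mice differed from each other in 3 of the 9 genes, with Trat1 higher and Cd3d and Ccr7 lower in high-Pb mice. In this comparison 18.7% of all genes passed, 6.04% higher and 12.6% lower. The split of all genes depended on scaling, with 760 of 2349 called genes higher as deposited. Quantile normalization gave 1142 of 2600, and cyclic loess 1167 of 2355. Trat1 had 6.13, 6.51 and 6.81 in 15 high-Pb arrays, against 5.92, 6.28 and 6.49 in 15 low-Pb arrays. The groups overlapped, with 8 of the 15 high-Pb arrays above every low-Pb array. Trat1 rose by 0.29 ± 0.07 on the log2 scale (adjusted p 0.00484).

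Ccr7, which guides naive lymphocytes into lymph nodes, had 8.67, 9.09 and 9.56 in the high-Pb arrays, against 8.75, 9.33 and 9.70 in the low-Pb arrays. Only 1 of the 15 high-Pb arrays lay below every low-Pb array, so the groups overlapped for most of their range. Ccr7 fell by 0.26 ± 0.08 (adjusted p 0.0200). Cd3d had 10.17, 10.57 and 10.93 in the high-Pb arrays, against 10.39, 10.83 and 11.13 in the low-Pb arrays, with 4 of 15 below every low-Pb array. Cd3d fell by 0.24 ± 0.08 (adjusted p 0.0339), while Cd3g differed by -0.15 (adjusted p 0.302) and Cd3e by -0.08 (adjusted p 0.370). The Cd3d call was lost when any 1 of 9 arrays was left out (low-Pb replicates 3, 4, 7 and 14 and high-Pb replicates 1, 5, 6, 8 and 13), over a range of adjusted p of 0.0140 to 0.0753. The Cd3d call was also lost with median centring of each array (adjusted p 0.0533), with the 18S covariate described below and without 2 arrays of wide spread, high-Pb replicate 13 of exposure and low-Pb replicate 4 of recovery (adjusted p 0.0646). The other genes differed by -0.11 (Cd27), 0.15 (Il7r), -0.03 (Cd8a) and 0.04 (Cd4), and none of them passed, although Il7r did after cyclic loess (adjusted p 0.0246).

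**Figure D2:**
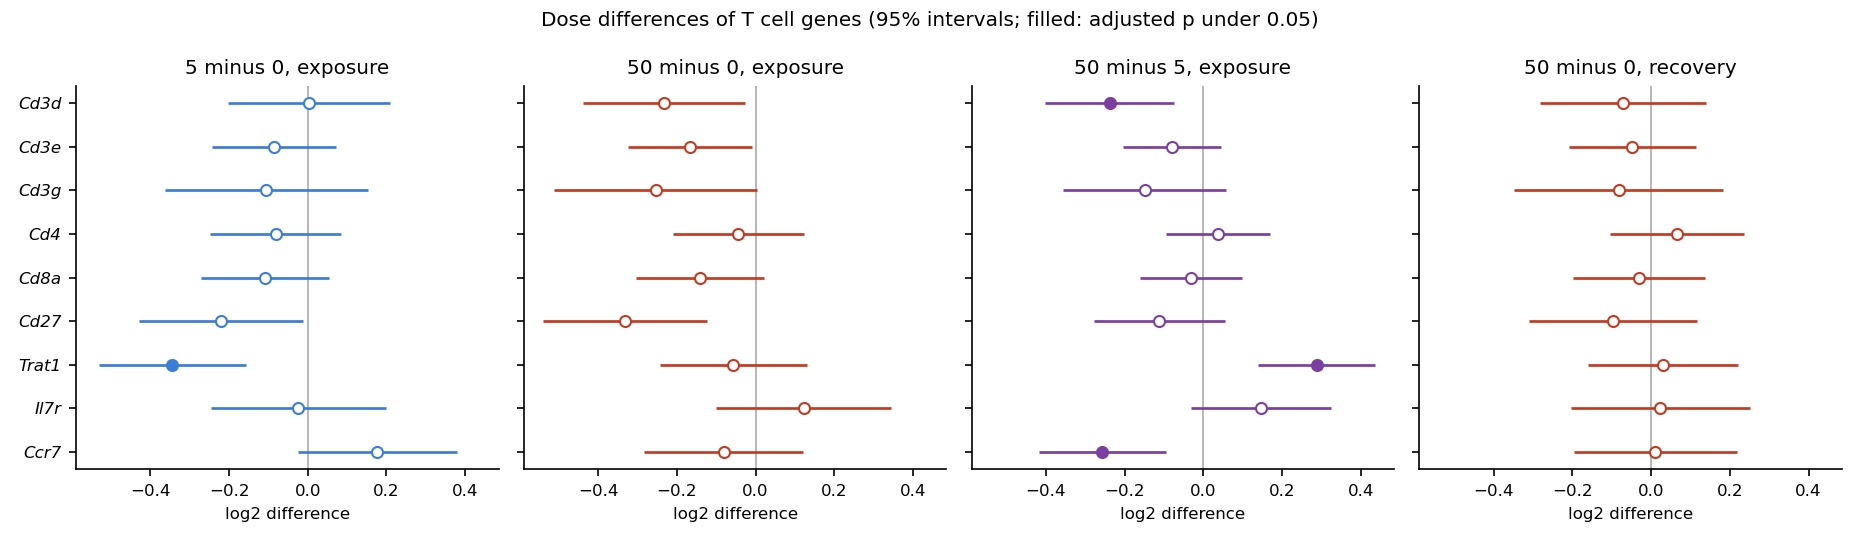
Log2 differences between doses for the 9 T cell genes, with 95% intervals from limma, after exposure (3 panels) and after recovery (1 panel); filled points have an adjusted p under 0.05. Trat1 is filled in 5 minus 0 and in 50 minus 5, Cd3d and Ccr7 are filled in 50 minus 5, and no point is filled after recovery.

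Other measures differed between the same arrays. The mean of the 18S ribosomal RNA probe sets after exposure averaged 7.00 ± 0.73 in control arrays (SD, n = 7), 7.00 ± 0.86 in low-Pb arrays (n = 15) and 7.79 ± 0.99 in high-Pb arrays (n = 15). With that mean as a covariate, Trat1 stayed past the threshold between the doses, while Cd3d (adjusted p 0.244) and Ccr7 (adjusted p 0.112) did not. The mean of 11 measured B cell markers (of 12 listed) lay between 7.03 and 8.89 in control, between 8.03 and 8.96 in low-Pb and between 7.41 and 8.43 in high-Pb arrays after exposure. All 11 B cell markers were lower in high-Pb than in low-Pb mice, 10 of them with an adjusted p under 0.05, beside 12.6% of all genes. All 11 were higher in low-Pb than in control mice, 4 of them with an adjusted p under 0.05, beside 1.11% of all genes. Whether the B cell share has a part in the Ccr7 difference was not tested.

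A second probe set of Trat1, with a mean of 5.30, followed the first with r of 0.76 over the 72 arrays. It gave -0.43 ± 0.13 for low Pb against control (unadjusted p 0.00130), close to the -0.34 of the brightest. In a fit over all 1-symbol probe sets neither passed, with an adjusted p of 0.134 for the second and 0.0772 for the brightest. For high Pb against control the second probe set gave -0.31, where the brightest gave -0.06. Between high and low Pb it gave 0.12 ± 0.10 (unadjusted p 0.258) where the brightest gave 0.29. The lower Trat1 level in low-Pb than in control mice thus had the same sign in both probe sets, while the size of the difference between the doses did not match. With the mean of both probe sets the difference between high and low Pb was 0.20 with an adjusted p of 0.0746.

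After recovery none of the 9 genes passed in any comparison of doses. The background was 0.429% of all genes between high-Pb and control mice (0.405% higher), 0% between low-Pb and control mice and 0% between high-Pb and low-Pb mice. An unadjusted p under 0.05 was reached by 0 of the 9 genes in these 3 comparisons, and by 1377, 295 and 1765 of all genes. Trat1 had 5.57, 5.86 and 6.30 in 7 control arrays, 5.42, 5.89 and 6.31 in 15 low-Pb arrays and 5.57, 5.94 and 6.37 in 13 high-Pb arrays. These 3 groups overlapped over nearly their whole range. Cd27 had 7.33, 7.63 and 8.13 in control arrays, 7.05, 7.58 and 8.19 in low-Pb arrays and 6.96, 7.60 and 7.91 in high-Pb arrays, which also overlapped. The differences of the 9 genes ran from -0.10 (Cd27) to 0.07 (Cd4) for high Pb against control, and from -0.09 (Cd8a) to 0.05 (Ccr7) for low Pb against control. Their 95% intervals ran from -0.35 to 0.25 and from -0.28 to 0.27 on the log2 scale.

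Whether the dose effects themselves differed between the collections was tested as an interaction. None of the 9 genes passed for high Pb (background 0.00794%) or for low Pb (background 0.0238%, 0.0159% higher). At an unadjusted p under 0.05 there were 432 and 1064 of all genes. For Trat1 the effect of low Pb was -0.02 after recovery and -0.34 after exposure, a difference of 0.32 ± 0.13 (unadjusted p 0.0164, adjusted p 0.347). The high-against-low difference of Trat1 changed by -0.24 ± 0.11 (unadjusted p 0.0298, adjusted p 0.993), in a contrast that was added after the other values were seen and in which 0.0635% of all genes passed. The absence of dose calls after recovery is therefore not shown to be a change from the exposure collection.

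Trat1 was lower after recovery at every dose, including in control mice. It had 5.57, 5.86 and 6.30 in control arrays after recovery, against 6.37, 6.60 and 6.77 after exposure, and these groups did not overlap, with 7 of 7 below. In low-Pb mice it had 5.42, 5.89 and 6.31 after recovery, against 5.92, 6.28 and 6.49 after exposure, with 9 of 15 below. In high-Pb mice it had 5.57, 5.94 and 6.37 after recovery, against 6.13, 6.51 and 6.81 after exposure, with 12 of 13 below. Trat1 fell by 0.68 ± 0.11 in control mice (adjusted p 1.45e-06), by 0.36 ± 0.07 in low-Pb mice (adjusted p 6.27e-05) and by 0.60 ± 0.08 in high-Pb mice (adjusted p 2.34e-09). The second probe set gave -0.69, -0.38 and -0.55 for the same comparisons. The collections differed in 36.1% of all genes in control mice, in 44.1% in low-Pb mice and in 49.2% in high-Pb mice, and 13.6%, 17.9% and 19.8% of all genes were lower.

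Cd3e and Cd4 were higher after recovery in both groups of Pb-exposed mice. Cd3e, a CD3 chain required for receptor assembly, had 10.52, 10.89 and 11.04 in low-Pb arrays after recovery, against 10.15, 10.59 and 10.87 after exposure. In high-Pb arrays it had 10.34, 10.81 and 11.16 after recovery, against 10.25, 10.47 and 10.70 after exposure, and 10 of 13 lay above every exposure array. Cd3e rose by 0.29 ± 0.06 in low-Pb mice (adjusted p 0.000132) and by 0.32 ± 0.07 in high-Pb mice (adjusted p 4.13e-05). In control mice Cd3e had 10.60, 10.79 and 11.04 after recovery, against 10.44, 10.61 and 10.88 after exposure, a difference of 0.20 ± 0.09 with an adjusted p of 0.0797 (past the threshold in 2 of the 14 alternative settings, at 0.0127 or higher).

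Cd4, the co-receptor of helper T cells, had 7.68, 7.90 and 8.16 in low-Pb arrays after recovery, against 7.00, 7.56 and 7.89 after exposure. In high-Pb arrays it had 7.49, 7.92 and 8.34 after recovery, against 7.25, 7.62 and 7.89 after exposure, with 8 of 13 above every exposure array. Cd4 rose by 0.31 ± 0.07 in low-Pb mice (adjusted p 8.59e-05) and by 0.34 ± 0.07 in high-Pb mice (adjusted p 3.39e-05). In control mice it had 7.70, 7.92 and 7.99 after recovery, against 7.40, 7.66 and 7.82 after exposure, and 5 of 7 lay above every exposure array. That difference was 0.23 ± 0.10 with an adjusted p of 0.0546 (past the threshold in 2 settings, at 0.0360 or higher), and the interaction tests given above showed no difference between exposed and control mice in this change that passed.

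Cd3d and Ccr7 passed between the collections in high-Pb mice. Cd3d had 10.36, 10.91 and 11.14 after recovery, against 10.17, 10.57 and 10.93 after exposure, and rose by 0.32 ± 0.09 (adjusted p 0.00137). Ccr7 had 8.88, 9.39 and 9.57 after recovery, against 8.67, 9.09 and 9.56 after exposure, and rose by 0.29 ± 0.08 (adjusted p 0.00359), although the ranges overlapped except for 1 of 13 arrays. In low-Pb mice Cd3d differed by 0.14 (adjusted p 0.153) and Ccr7 by 0.07 (adjusted p 0.498), and in control mice by 0.16 (adjusted p 0.305) and 0.19 (adjusted p 0.189). Cd3d passed in low-Pb mice in 3 of the 14 alternative settings (lowest adjusted p 0.0242) and Ccr7 in control mice in 2 (lowest adjusted p 0.0147). Counted over the 9 genes, 0 were higher and 1 lower in control mice, 2 higher and 1 lower in low-Pb mice, and 4 higher and 1 lower in high-Pb mice. The share of all genes that were higher was 22.5% in control, 26.2% in low-Pb and 29.4% in high-Pb mice. Cd3d arrays of both collections overlapped there too, at 10.64, 10.88 and 11.35 in control and 10.38, 10.95 and 11.41 in low-Pb arrays after recovery. Ccr7 had 9.14, 9.32 and 9.61 in control and 9.03, 9.39 and 9.87 in low-Pb arrays after recovery, again overlapping with exposure.

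Cd3g, Cd8a, Cd27 and Il7r passed at no dose, with differences between -0.16 and 0.19, although Cd27 was past the threshold in control mice after quantile normalization and cyclic loess (smallest adjusted p 0.00579), and Cd3g in high-Pb mice with the 3′ minus 5′ covariate described below (adjusted p 0.0265). Cd3g, the gamma chain of CD3, had 8.53, 8.93 and 9.44 in control, 8.21, 9.01 and 9.62 in low-Pb and 8.10, 8.90 and 9.37 in high-Pb arrays after recovery. After exposure Cd3g had 8.61, 8.90 and 9.22 in control, 8.42, 8.80 and 9.18 in low-Pb and 8.11, 8.70 and 9.03 in high-Pb arrays. All 6 groups overlapped. Il7r had 9.71, 10.36 and 10.66 in control, 9.86, 10.18 and 10.71 in low-Pb and 9.82, 10.34 and 10.73 in high-Pb arrays after recovery. After exposure Il7r had 9.83, 10.21 and 10.46, then 9.59, 10.22 and 10.60, and 9.91, 10.33 and 10.75 in control, low-Pb and high-Pb arrays. Its medians lay between 10.18 and 10.36, and the ranges overlapped throughout.

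**Figure D3:**
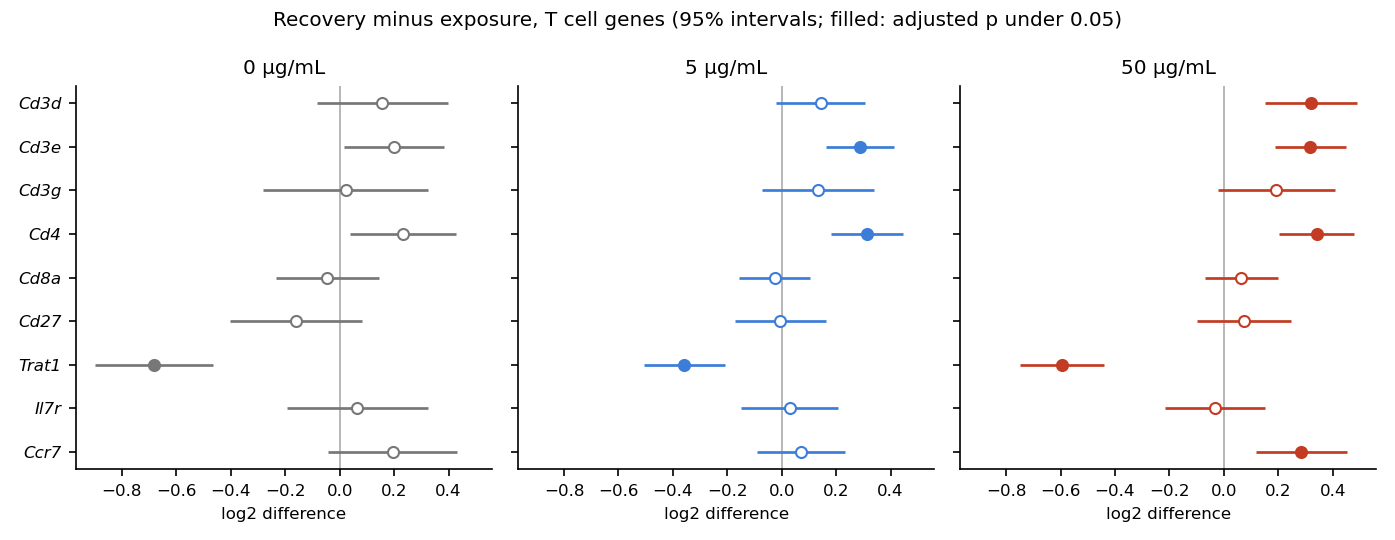
Log2 differences, recovery minus exposure, of the 9 T cell genes at Pb doses of 0, 5 and 50 µg/mL, with 95% intervals from limma; filled points have an adjusted p under 0.05. Trat1 is filled below 0 in each panel, Cd3e and Cd4 are filled above 0 at 5 and 50 µg/mL, and Cd3d and Ccr7 at 50 µg/mL.

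The collections also differed in technical measures and in other cell types. The difference between the 3′ and 5′ probe sets of the array's control transcripts averaged 0.79 ± 0.10 in control, 0.80 ± 0.10 in low-Pb and 0.75 ± 0.09 in high-Pb arrays after recovery, against 0.46 ± 0.11, 0.49 ± 0.09 and 0.52 ± 0.16 after exposure (SD; n = 7, 15 and 13 after recovery and 7, 15 and 15 after exposure). With that difference as a covariate, further genes passed: Ccr7 in control (adjusted p 0.0301), Cd3d in low-Pb (0.0242) and Cd3g in high-Pb mice (0.0265). With the 18S mean as a covariate, Cd3d (adjusted p 0.123) and Ccr7 (adjusted p 0.0810) no longer passed in high-Pb mice. Without a covariate 1, 3 and 5 of the 9 passed in control, low-Pb and high-Pb mice, beside 36.1%, 44.1% and 49.2% of all genes. The share of all genes under either covariate is not given here. Trat1, Cd3e and Cd4 stayed past the threshold in low-Pb and high-Pb mice in each of these fits. The 3′ minus 5′ difference itself moved with the collection. In control arrays it ran from 0.304 to 0.615 after exposure and from 0.621 to 0.926 after recovery. A fit with this covariate therefore cannot tell the collection and that difference apart. All 11 B cell markers were higher after recovery at each dose, with an adjusted p under 0.05 for 11 in control, 10 in low-Pb and 11 in high-Pb mice. Over all genes 22.5%, 26.2% and 29.4% were higher at that threshold. The mean of reticulocyte and erythroid markers was 7.88, 7.88 and 8.20 in control, low-Pb and high-Pb arrays after recovery, against 8.48, 8.50 and 8.72 after exposure. Age, collection and any handling that differed between the collections cannot be told apart.

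The difference between the co-receptor genes Cd4 and Cd8a within an array was higher after recovery at each dose. It was chosen after values were seen and is given with no test. It averaged 0.46 ± 0.18 in control arrays after recovery, against 0.18 ± 0.15 after exposure (SD, n = 7 each). It averaged 0.55 ± 0.15 in low-Pb arrays after recovery, against 0.21 ± 0.23 after exposure (SD, n = 15 each), and 0.55 ± 0.16 in 13 high-Pb arrays after recovery, against 0.28 ± 0.14 in 15 after exposure (SD). The ranges of the collections overlapped at each dose. A signal on an array has no common scale between probe sets, so the difference gives no ratio of cells. The difference between Trat1 and Cd3e within an array averaged -4.94 ± 0.18 in control arrays after recovery, against -4.05 ± 0.20 after exposure (SD, n = 7 each). It is given with no test because it was picked for its pattern.

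Probe sets of Cd8a, the alpha chain of the co-receptor of cytotoxic T cells, disagreed. Levels of the brightest lay between 6.90 and 7.80 in all 72 arrays, with group medians of 7.38, 7.36 and 7.39 after recovery and 7.45, 7.32 and 7.33 after exposure. This probe set, with a mean of 7.38, gave -0.04, -0.03 and 0.06 for recovery minus exposure at 0, 5 and 50 µg/mL, and another, with a mean of 7.19, gave -0.13, -0.10 and 0.00. Another, with a mean of 6.99 and r of 0.77 with the brightest, gave -0.56 ± 0.13, -0.47 ± 0.09 and -0.30 ± 0.09, with adjusted p over all 1-symbol probe sets of 0.00101, 2.74e-05 and 0.00900. The remaining 2 probe sets of Cd8a followed the brightest with r of -0.32 and 0.08. The call for Cd8a between the collections thus depended on the probe set. After exposure the 3 brightest gave -0.14 ± 0.08, -0.20 ± 0.10 and -0.29 ± 0.11 for high Pb against control, none with an adjusted p under 0.05. Between high and low Pb the brightest gave -0.03, while the probe set with a mean of 6.25 gave 0.25 ± 0.08 (adjusted p 0.0329) and the one with a mean of 5.78 gave 0.16 ± 0.06 (adjusted p 0.0936). The second probe set of Il7r gave 0.09, 0.06 and 0.10 where the brightest gave 0.07, 0.03 and -0.03, and neither passed. A second probe set of Cd4 was dim, with a mean of 3.68, above the filter value in 0 arrays and with r of -0.12 with the brightest. It gave -0.22, -0.12 and 0.01 for recovery minus exposure, none with an adjusted p under 0.05. The higher Cd4 level after recovery thus rests on 1 probe set.

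**Figure D4:**
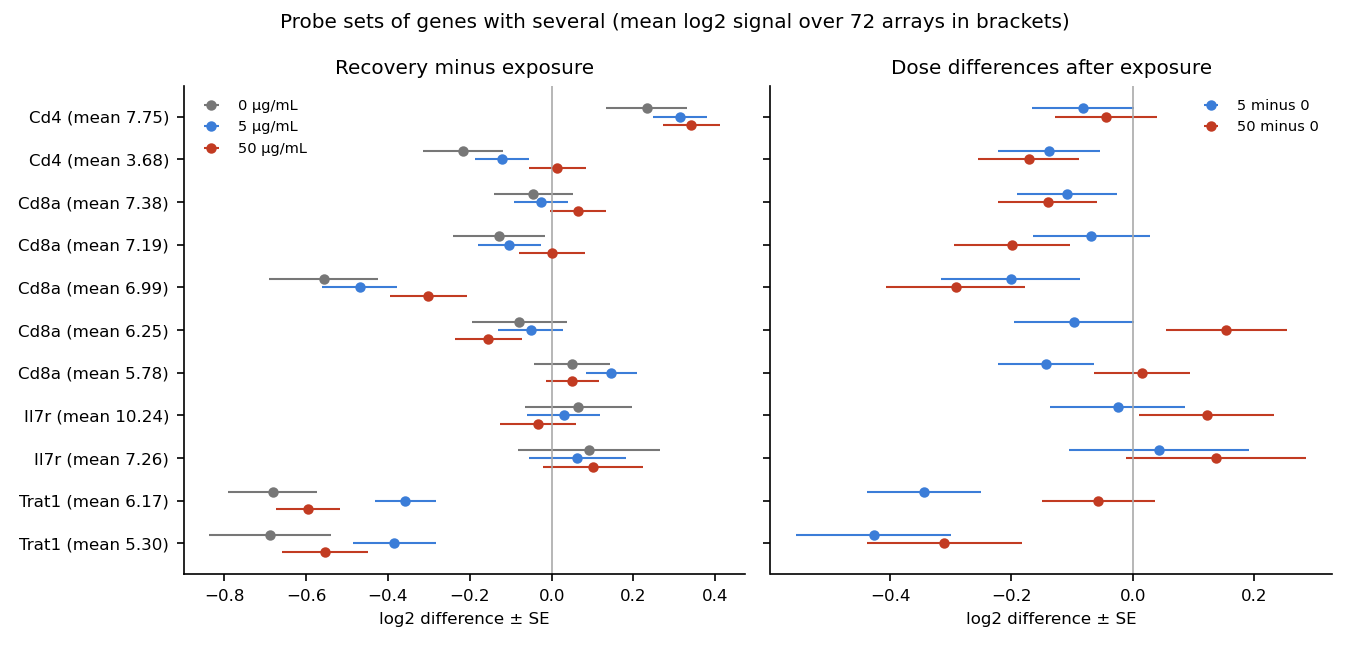
Log2 differences ± SE for every probe set of Cd4, Cd8a, Il7r and Trat1, with the mean log2 signal over 72 arrays in brackets: recovery minus exposure at each dose at the left, and dose differences after exposure at the right. Both Trat1 probe sets lie below 0 between the collections, and only 1 of the 5 Cd8a probe sets lies between -0.56 and -0.30.

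Pooled over the dose groups of a collection, the 9 genes rose and fell together across arrays. After each group mean was subtracted, all 36 pairs correlated positively in the 35 recovery arrays, with Pearson r between 0.42 and 0.95 and a median of 0.79, and in the 37 exposure arrays, with r between 0.20 and 0.90 and a median of 0.66. Over the 72 relations, 36 pairs after recovery and 33 after exposure had an adjusted permutation p under 0.05. The neighbours Cd3d and Cd3g, whose promoters are printed above, were the closest pair, with r of 0.95 and rho of 0.95 after recovery and r of 0.90 and rho of 0.91 after exposure. Each had a permutation p of 1e-05, the smallest that 100000 resamples can give, and 1.8e-05 after adjustment. Without the 2 arrays farthest from the median of Cd3d the values of r were 0.93 and 0.90. Within the dose groups r was 0.98, 0.94 and 0.97 after recovery and 0.83, 0.91 and 0.91 after exposure, for 0, 5 and 50 µg/mL. Not all pairs held within each dose group. In the 7 control arrays after exposure, r of Cd4 with the other genes ran from -0.52 (Trat1) to 0.57 (Cd3e).

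Trat1 was the least correlated of the 9. Its median r with the other genes was 0.63 after recovery and 0.43 after exposure. With Cd3e it had r of 0.48 and rho of 0.51 after recovery (permutation p 0.0042 and 0.00276, adjusted 0.00488 and 0.00331). After exposure r was 0.20 and rho 0.16 (permutation p 0.251 and 0.371, both unchanged by adjustment). Without the 2 farthest arrays r was 0.52 after recovery and 0.03 after exposure. Trat1 followed Il7r most closely, with r of 0.81 after recovery and 0.69 after exposure. RNA amount, array scaling and the share of T cells in a sample act on all 9 genes of an array at once, and their part in these correlations was not tested.

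**Figure D5:**
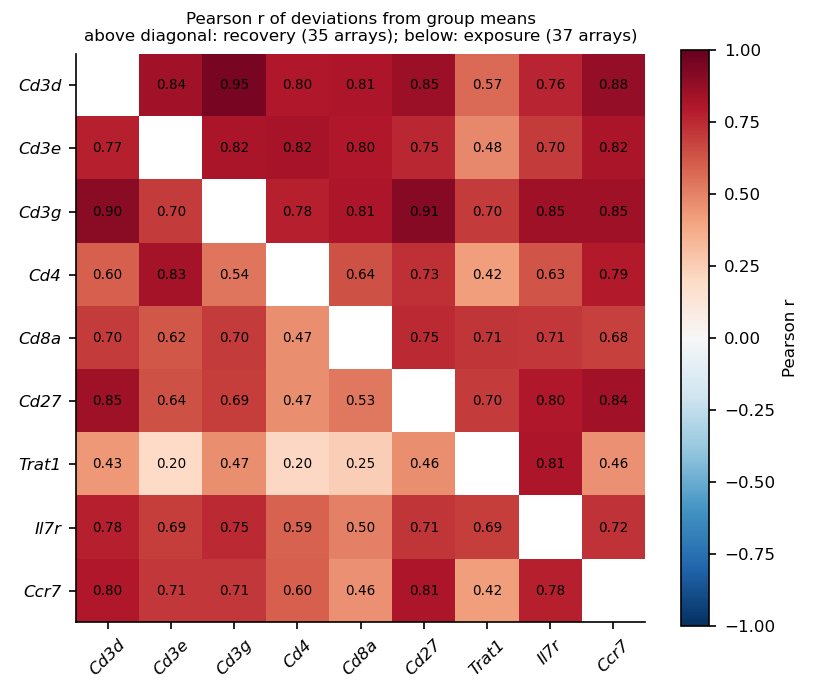
Pearson r between the 9 T cell genes after subtraction of each group mean, with the 35 recovery arrays above the diagonal and the 37 exposure arrays below. The Cd3d and Cd3g pair is darkest both above and below (0.95 and 0.90), and the row and column of Trat1 are palest.

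The tested genes whose deviations were most like the mean of the 9 over the 72 arrays were Trbv1 (r of 0.94), Fam189b (0.93), Cd96 (0.93), Saraf (0.91), Pdlim4 (0.91), Gtf2i (0.91), Gimap4 (0.90), Sec11a (0.90), Cd6 (0.90) and Thy1 (0.90). Trbv1 is a variable segment of the T cell receptor beta chain, and Cd96, Cd6 and Thy1 encode surface proteins of T cells. The gene of highest r was Trbv1 for Cd3d (0.95) and Cd3g (0.94), Thy1 for Cd3e (0.89), Cd3e for Cd4 (0.82), Klk8 for Cd8a (0.78), Als2cl for Cd27 (0.90), Psip1 for Trat1 (0.82), Atp1b3 for Il7r (0.89) and Cd6 for Ccr7 (0.90). Exposed mice give arrays at both collections, so the 72 points are not all independent, and no p is given.

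Other genes of T cell receptor signalling gave no calls against control after exposure. Of 29 listed, 26 were measured, and 0 passed between high-Pb or low-Pb and control mice after exposure. The median log2 difference was -0.09 for high Pb against control, with 22 of the 26 negative, and -0.01 for low Pb against control. Between high and low Pb 4 of the 26 were lower and 0 higher, beside 12.6% of all genes lower and 6.04% higher. The 4 were Ptprc, the phosphatase CD45 (-0.23 ± 0.05, adjusted p 0.00148), Csk, a kinase that inhibits Lck (-0.24 ± 0.07, 0.00880), Rasgrp1, an activator of Ras (-0.22 ± 0.07, 0.0289) and Cd2, an adhesion receptor (-0.24 ± 0.09, 0.0387). Between the collections 4 were higher and 4 lower in control mice, 9 higher and 6 lower in low-Pb mice, and 9 higher and 4 lower in high-Pb mice. Over all genes 22.5%, 26.2% and 29.4% were higher and 13.6%, 17.9% and 19.8% lower in these 3 comparisons. Zap70, the kinase recruited to phosphorylated CD3 chains, rose by 0.28 ± 0.06 in low-Pb mice (adjusted p 2.70e-05) and by 0.30 ± 0.06 in high-Pb mice (adjusted p 1.43e-05). Vav1, a guanine nucleotide exchange factor, rose by 0.43 ± 0.14 in control mice (adjusted p 0.00924) and by 0.52 ± 0.10 in high-Pb mice (adjusted p 7.18e-06). The adaptor gene Grap2 fell by 0.39 ± 0.12, 0.43 ± 0.08 and 0.42 ± 0.09 in control, low-Pb and high-Pb mice, as Trat1 also did.

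Of 30 genes of naive T cell homing, survival and lineage, 23 were measured. None passed against control after exposure, and S1pr1, the receptor that guides lymphocyte exit from lymph nodes, came closest between high-Pb and control mice at -0.43 ± 0.10 (adjusted p 0.0769). Between high and low Pb 7 of the 23 were lower and 0 higher, beside 12.6% of all genes lower, with a median of -0.18 against -0.03 over all genes. In the same comparison all 11 B cell markers were lower, 10 of them with an adjusted p under 0.05, with a median of -0.75. Their part in the list was not tested. The 7 lower genes of the naive T cell list included Foxo1, a transcription factor that drives Il7r and Klf2 (-0.28 ± 0.08, adjusted p 0.00639). Among these 7 were also Klf2, which maintains S1pr1 (-0.27 ± 0.08, 0.0168), Gimap6 (-0.28 ± 0.09, 0.0207) and Ets1 (-0.24 ± 0.08, 0.0229). Ccr7 fell in the same comparison and Il7r did not pass. After recovery 0 of the 23 passed between any doses. Between the collections 9 were higher and 1 lower in control mice, 10 and 1 in low-Pb mice, and 12 and 1 in high-Pb mice, beside the same shares of all genes given for the receptor signalling list. Foxp1, a transcription factor that maintains naive T cells and is also expressed in B cells, rose by 1.16 ± 0.15 in control mice (adjusted p 1.15e-08), by 1.01 ± 0.10 in low-Pb mice (2.96e-12) and by 0.91 ± 0.10 in high-Pb mice (8.93e-11). Jak3, the kinase that signals for the interleukin 7 receptor, rose by 0.60 ± 0.11, 0.46 ± 0.07 and 0.69 ± 0.08 in the same groups, while Il7r itself did not pass in any.

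Genes of activated, memory and regulatory T cells were measured for 14 of 16. In low-Pb mice 2 of the 14 were higher than in control, beside 1.11% of all genes. They were Cxcr5, a receptor of B cells and follicular helper T cells (0.61 ± 0.15, adjusted p 0.0157), and the early activation gene Cd69 (0.54 ± 0.15, adjusted p 0.0434). Between high and low Pb Cxcr5 fell by 0.62 ± 0.12 (adjusted p 0.000123) and Icosl, a ligand carried by B cells, fell by 0.46 ± 0.09 (adjusted p 9.93e-05), while Lag3 rose by 0.24 ± 0.08 (adjusted p 0.0251). Thus 2 of the 14 were lower and 1 higher, beside 12.6% and 6.04% of all genes. The B cell markers whose values are given above moved the same way as Cxcr5 in both comparisons, and their part was not tested. Foxp3, the regulator of regulatory T cells, was higher after recovery by 0.52 ± 0.11 in control mice (adjusted p 0.00011), 0.53 ± 0.07 in low-Pb mice (3.28e-08) and 0.49 ± 0.08 in high-Pb mice (2.31e-07). Its mean was 5.20, 5.14 and 5.07 after recovery, against 4.68, 4.61 and 4.57 after exposure, in control, low-Pb and high-Pb mice.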

How the data were processed

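The authors deposited 1 log2 value per probe set and array. The submitters' processing notes name RMA (robust multi-array averaging), and its software and settings are not stated in the sources used here. The deposited values lay between 0.410 and 14.1, with array medians of 4.05 to 4.22. Of 45101 probe sets 34958 had exactly 1 symbol in the platform annotation. No normalization was added. Probe sets above 4.14, the median of all values, in at least 7 arrays were kept, and the brightest stood for its gene. The 6 group means of 72 arrays were fitted with limma 3.58.1 (R 4.3.3), with 66 residual degrees of freedom, empirical Bayes moderation and Benjamini-Hochberg adjustment over 12589 genes within each comparison, at a threshold of 0.05. The number of arrays limits the precision. The fit was tested on simulated data. Correlations have 2-sided permutation p with 100000 resamples (scipy 1.17.1). The 9 genes were named in every comparison, with up to 4 of each further list by smallest p. The genes and lists were chosen with earlier results of these data known. There were 14 alternative settings, and each array was left out in turn.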

Additional observations from a re-analysis of the deposited data

How the results depend on the processing

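Of 13 calls on single T cell genes, 0 changed sign under any of 14 alternative settings or with any of 72 arrays left out. Of 86 values not past the threshold, 27 changed sign under an alternative and 27 with an array left out, with sizes of at most 0.16. High Pb against control after exposure had 0 called genes, and 1 after quantile normalization or cyclic loess. Low Pb against control after exposure had 1, and 2 after quantile normalization, cyclic loess or array weights, and 0 with median centring, with no filter on dim probe sets or with the replicate number as a fixed block. High against low Pb after exposure had 3, and 1 with 18S as a covariate. There Cd3d was also lost with median centring and without the 2 arrays of wide spread, and Trat1 with the mean of its probe sets (adjusted p 0.0746), while Il7r passed after cyclic loess (adjusted p 0.0246). Recovery against exposure in high-Pb mice had 5. Cd3d and Ccr7 were lost there with 18S as a covariate, and Cd3g passed with the 3′ minus 5′ covariate (adjusted p 0.0265). Recovery against exposure in low-Pb mice had 3, and Cd3d passed as well after quantile normalization (adjusted p 0.0420), with array weights (0.0364) and with the 3′ minus 5′ covariate (0.0242). The second against the first collection in control mice had 1. Cd3e and Cd27 passed as well after quantile normalization, Cd27 after cyclic loess and Cd4 with only the compared arrays. Ccr7 passed with the 3′ minus 5′ covariate, and Cd3e, Cd4 and Ccr7 with array weights. Counts of all genes also moved between settings and are given below for some of them. The cause of these shifts was not tested. With 1 array left out, counts ranged from 0 to 1 for low Pb against control and from 2 to 3 for high against low Pb after exposure. They ranged from 1 to 3 in control, from 3 to 3 in low-Pb and from 5 to 6 in high-Pb mice between the collections, and from 0 to 0 elsewhere. In control mice Cd3e passed without control replicate 3 of exposure or 1 of recovery, and Cd4 without replicate 3 or 6 of exposure or 1 or 2 of recovery. In high-Pb mice Cd3g passed without high-Pb replicate 4 of recovery (adjusted p 0.036).

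Over all genes, high Pb against control after exposure had 3 calls, 75 after quantile normalization and 68 after cyclic loess, and low Pb against control had 164, 314, 305, 95 with median centring and 1406 with array weights. High against low Pb had 2349, and 893 with 18S as a covariate. High Pb against control after recovery had 54, and between 3 with the fixed replicate block and 427 with array weights. Between the collections the share of called genes that were higher moved with scaling, from 3695 of 6189 to 2989 of 6568 in high-Pb mice, from 3301 of 5552 to 2782 of 5827 in low-Pb mice and from 2834 of 4544 to 2417 of 4911 in control mice under cyclic loess. Whether a replicate number marks the same mouse at both collections is not in the labels. A sample correlated best with its own number in 0 of 13 high-Pb, 3 of 15 low-Pb and 1 of 7 control pairs. These counts cannot decide the question, because a low count does not exclude that a number marks 1 mouse. As a random block, the number changed no count of T cell genes, at a correlation of 0.0212.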
